A study of Mus musculus with 12 samples.

Results

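Wild-type E14 mouse embryonic stem cells exposed to doxorubicin were compared with the same cells given vehicle, over every expressed gene. The libraries were chosen by their labels, genotype wild type and agent control or doxorubicin, which gave 4 of the 12 libraries of the series. E14 is a pluripotent line derived from the mouse blastocyst. Doxorubicin is an anthracycline that intercalates into DNA, traps topoisomerase II on cut DNA and so leaves double-strand breaks. The drug groups received 1 uM doxorubicin for 6 h and then medium without drug, and the vehicle groups received DMSO for 6 h followed by a change of medium; how long the cells then stayed in drug-free medium is not given in the sources used here. All groups grew on gelatin in serum-containing medium with LIF and the inhibitors PD0325901 and CHIR99021. The wild-type groups were 2 control and 2 drug libraries of 1 line, called a and b here because their columns carry no number, and they are not paired. For comparison, p53 KO and Dux KO cells of the same E14 background, each as 2 numbered knockout lines, had been treated alike. The design text calls the duplicates biological, and nothing says whether they came from separate cultures, so p-values measure the spread between libraries. That spread was estimated over all 11 libraries used, with 5 residual degrees of freedom. It includes differences between knockout lines, so adjusted p-values and SEs of the wild-type response do not rest on the wild-type libraries alone.

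DNA breaks activate the kinases ATM and ATR, which stabilise the transcription factor p53 and alter many other regulators. In embryonic stem cells such damage is known to end self-renewal, and the double-homeobox factor Dux turns on genes of the 2-cell embryo. Beyond these programmes, cells under genotoxic stress are known to change metabolism, protein synthesis, RNA processing, chromatin and signalling, and those groups of genes are described here.

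Polyadenylated RNA was sequenced and the deposited values are reads per gene. Totals ran from 27059180 to 30493264 counts in the 4 wild-type libraries, with 28488 and 28606 genes counted in the controls and 33629 and 34297 in the drug libraries. The filter kept 28643 of 54532 genes. Levels are given as CPM, counts scaled to a common library size after TMM scaling; they are shares of a library, so that fewer cells of a type and less RNA per cell cannot be told apart. A gene was called when edgeR's quasi-likelihood test gave a Benjamini-Hochberg adjusted p below 0.05, and only called genes are said to have risen or fallen. The 4 annotated ribosomal RNA loci held 0.90% and 0.462% of counts in the controls, 0.803% in drug library a and 6.56% in drug library b. Strand was not stated for the counting, and each of these genes named below shares part of its span with another annotated gene, so that reads of the pair may be mixed: Adarb2, Aldoa, Atp5c1, Bcl3, Bnip3, Ciart, Cryab, Ctnna2, Ctsd, Dhh, Dnajb9, Dpf1, Dst, Eef1a1, Eif2s2, Eif5, Eno1b, Fdps, Grin1, Hdac7, Hdac9, Hnrnpl, Iars, Il4ra, Irs1, Kcnj15, Krt7, Lhfp, Magel2, Mob3b, Mrpl12, Mrps6, Mt2, Ncam1, Ncl, Ndufb6, Neb, Nelfa, Nid1, Nlrc5, Pdha1, Pdia3, Pds5a, Psat1, Psmb10, Psmb5, Ptch1, Rhbdd1, Rian, Rpl4, Rps28, Seh1l, Ssh2, Stat6, Tead4, Thbs1, Vmp1, Zfp36 and Zfp809. Of 10 markers of embryonic stem cells, 8 fell, and Fbxo15 and Sall4 were not called. Of 7 tested fibroblast markers 5 rose and 1 fell, their summed level moving from 14.5 and 14.5 CPM to 72.8 and 84.9 CPM. Fbn1 alone went from 3.57 and 2.28 CPM to 43.9 and 53.3 CPM, while Col3a1, Dcn, Lum and Postn did not exceed 0.199 CPM in any of the 4 libraries. For trophoblast 5 of 8 tested markers rose, summed 69.4 and 67.2 to 178 and 169 CPM. Krt7 alone went from 2.88 and 3.37 CPM to 118 and 104 CPM, so the rise of the sum rests on it. The other trophoblast markers that rose stayed at or below the 16.55 CPM of Gata3, and Eomes, Tfap2c and Ascl2 were not called. For endoderm 5 of 10 rose, summed 13.4 and 13 to 37.5 and 41.4 CPM. For blood 4 rose and 1 fell of 8, summed 5.21 and 5.35 to 12.9 and 12.2 CPM. The part of these cell types in the results was not tested. Without control a 3 of the endoderm markers rose. Each marker set was also put beside all tested genes at the same levels in the knockout controls, weighted as for the lists below. Of the stem cell markers 80% fell, against 60% of such genes. Rises were 71.4% against 36.8% for fibroblast, 62.5% against 29.5% for trophoblast, 50% against 38.3% for endoderm and 50% against 39.7% for blood.

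The response was broad. Of 28643 genes, 8296 rose (29.0%) and 6698 fell (23.4%), so that 52.3% were called, with a median log2 fold change of 0.13 over all genes. Both drug libraries lay above both controls in 45.1% of tested genes and below both in 38.9%. Without drug library b 5489 genes rose, and without drug library a 6382 rose. The rises and falls had different shapes. A rise of more than 3 on the log2 scale was called in 3811 genes and a fall of that size in 368; beyond 5 the numbers were 2148 and 82.

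**Figure D1:**
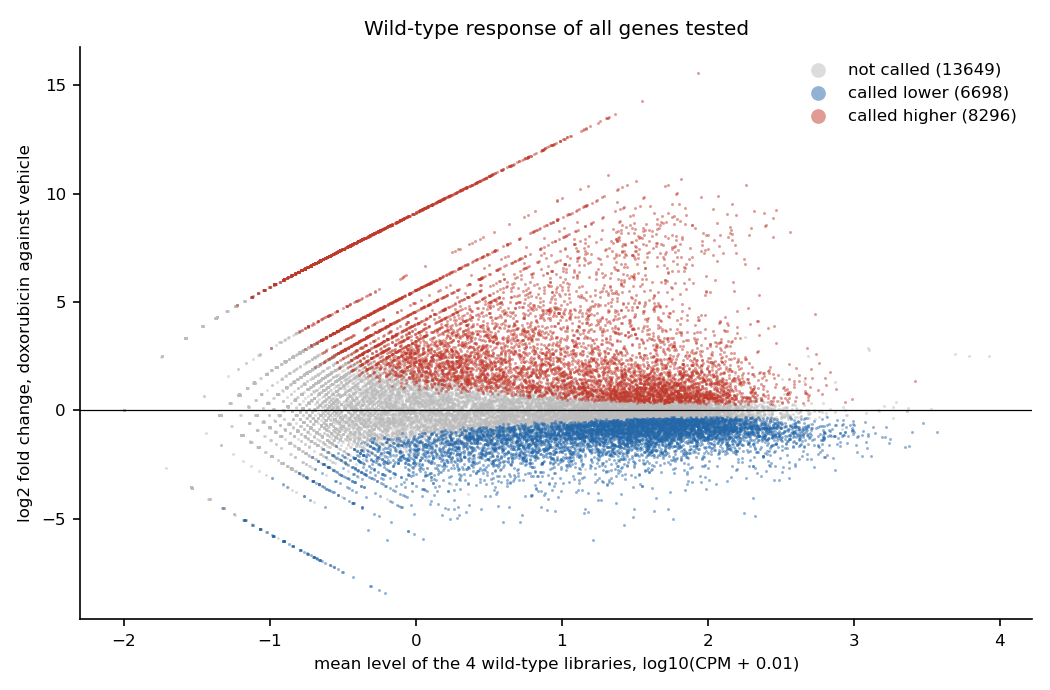
Each of the 28643 tested genes is a point, with the mean level of the 4 wild-type libraries on the x axis as log10 of CPM + 0.01 and the log2 fold change of doxorubicin against vehicle on the y axis. The 8296 genes called higher are red, the 6698 called lower are blue and the 13649 not called are grey; straight diagonal lines are genes with 0 or very few counts in 1 group, whose fold change depends on the prior count of the fit.

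Level, gene type and gene length each went with direction. Grouped by their mean level in the 3 control libraries of the knockout lines, which the wild-type contrast does not use, the 996 genes at 0 CPM there rose in 70.1% and fell in 0.0% of cases, the 2670 genes of up to 0.1 CPM rose in 50.6% and fell in 0.187%, and the 6901 genes of 0.1 to 1 CPM rose in 34.8% and fell in 4.58%. At 10 to 100 CPM 21.3% of 8915 genes rose and 36.9% fell. Above 100 CPM 7.4% of 2649 genes rose and 62.6% fell, with a median of -0.66. Among genes of at least 10 CPM in both wild-type groups, 20.7% of 10231 rose and 37.8% fell (median -0.23). A gene kept by the filter because of its drug libraries alone had to be higher there, so the share of rises among the lowest genes is partly set by the filter.

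Long noncoding genes rose in 31.7% and fell in 14.1% of 5475 cases (median 0.74), protein-coding genes in 31.9% and 25.2% of 18007 (median 0.14), and pseudogenes in 15.6% and 32.6% of 3512 (median -0.55). Pseudogenes together took 13.7% and 14.5% of counts in the controls against 10% and 8.6% in the drug libraries. Among protein-coding genes with a mean of at least 10 CPM, those spanning under 10 kb rose in 23.7% and fell in 40.1% of 2159 cases. Genes spanning over 300 kb rose in 55.9% and fell in 18.5% of 286 cases, with a median of 0.77 against -0.13 for all 10375 such genes. That mean runs over both groups, so a gene low in the controls could enter through its drug libraries alone and had then to be higher there. The span classes were not compared at equal level, so their shares are partly set by this rule. The deposited FPKM values follow the whole span of a gene, introns included, and whether intronic reads were counted is not given in the sources used here; the part of unspliced RNA in the response of long genes was not tested.

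**Figure D2:**
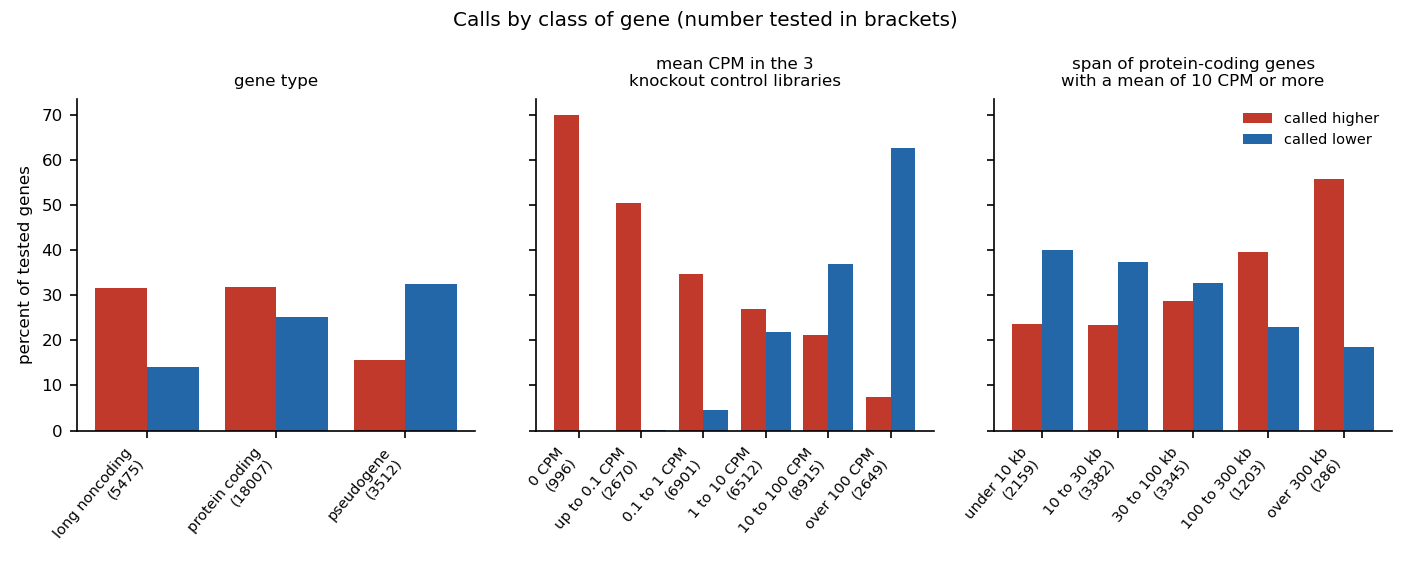
Bars give the percent of tested genes called higher (red) and lower (blue) by gene type, by mean CPM in the 3 control libraries of the knockout lines, and by gene span for protein-coding genes with a mean of 10 CPM or more; the number tested stands in brackets. The share called lower climbs from 0.0% at 0 CPM to 62.6% above 100 CPM, and the share called higher from 23.7% under 10 kb to 55.9% above 300 kb. Genes could reach the mean of 10 CPM through their drug libraries alone, and span classes were not matched for level.

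Some genes were counted only with the drug. At 0 counts in both controls and at 10 counts or more in both drug libraries stood 877 genes, among them 388 protein-coding genes, 157 lincRNA genes and 77 antisense genes, against 16 genes in the opposite direction. The leading protein-coding genes outside the 2-cell name pattern were of mixed function. Kcnj15, an inwardly rectifying potassium channel, reached 32.7 and 37.6 CPM, at least 307-fold above the floor of 3 counts per control library. Slc22a28, an organic anion transporter, reached 22.9 and 32.9 CPM, at least 244-fold higher. Hdc, the histidine decarboxylase that makes histamine, reached 22.8 and 31.1 CPM, at least 236-fold higher. AW822073 (chr10:58222972-58224930, minus strand), whose function is not described here, reached 19.2 and 19.5 CPM, at least 169-fold higher. It stood at 0 CPM in every Dux knockout library used and at 3.23 and 0.821 CPM in the p53 knockout drug libraries. Whether it belongs to the Dux programme was not tested. The next pair are a structural protein of cilia and a secreted protease inhibitor. Tekt4, a tektin of the axoneme, reached 17.9 and 17.3 CPM, at least 154-fold higher, and Serpina3n, an acute-phase serpin, 13.5 and 15.8 CPM, at least 128-fold higher. Fitted log2 fold changes of such genes depend on the prior count and are not given. Of the wild-type libraries the controls held no read of these 6 genes, and drug libraries a and b differed by less than 1.5-fold in each. Among counts of 500 or more in the wild-type libraries only 26.5% to 33.4% were odd, so that counts are not all independent. The floor of 3 counts treats them as independent, and bounds drawn from it here and below may be too high.

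Gene lists are described next by how many tested members rose and fell and by their median, beside 29.0% higher, 23.4% lower and a median of 0.13 over all genes tested. Members given with library values were picked by a fixed rule; members given by log2 fold change alone were chosen after their values were seen. Heyl, Rorb, Thbs1 and Zfp648 had 0 counts in 1 control and at most 4 in the other, so that their fitted fold changes depend on the prior count and are no bound.

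Since highly counted genes fell more often, each list was also set beside the share of all tested genes called, weighted to the list's numbers in the 6 classes of mean CPM in the knockout controls; this comparison was chosen after the values were seen, and it is a description with no test. The share that fell stood well above that of all genes at the same levels for cytosolic ribosomal proteins (93.4% against 48.8%), host genes of small nucleolar RNAs (80% against 36.8%), sterol synthesis (79.2% against 48.1%), glycolysis (86.4% against 58.4%), serine, folate and nucleotide synthesis (80.8% against 56.7%), heterochromatin (75.9% against 53.7%) and the proteasome (77.1% against 57.8%). It stood closer for mitochondrial ribosomal proteins (52.6% against 38.5%), SWI/SNF (53.8% against 42.4%), metal genes (50% against 39.1%), synthetases (70% against 60%), the respiratory chain (57.7% against 49.0%), translation factors (66.7% against 58.3%), cohesin and condensin (64.0% against 56.4%), the tricarboxylic acid cycle (63.2% against 57.2%) and Polycomb (48.6% against 44.0%). It was near that of all genes at the same levels for cytosolic chaperones (54.5% against 50.7%), splicing (58.5% against 55.9%), zinc-finger genes (31.9% against 30.7%), the nuclear pore (53.2% against 56.0%) and NRF2 targets (44.4% against 47.5%), and below it for RNA decay (34.0% against 44.2%), actin (32.4% against 45.3%) and H3K4 and deacetylase genes (24.3% against 45.8%). The share that rose stood above that of all genes at the same levels for the endoplasmic reticulum (50% against 15.9%), Hippo (54.8% against 21.8%), BMP (51.2% against 25.4%), integrins and matrix (49.1% against 24.8%), Notch (50% against 26.6%), autophagy (41.7% against 20.3%), lysosome (37.5% against 17.4%), junctions (42.2% against 22.8%), imprinted genes (40.5% against 23.4%), neuronal genes (43.1% against 27.9%), mTOR and AMPK (35.3% against 21.6%), RNA polymerase II and Mediator (29.3% against 17.5%), intermediate filaments and tubulins (28.6% against 17.0%), solute carriers (39% against 28.6%), NF-kappaB (37.1% against 27.3%) and LIF and JAK-STAT (27.3% against 21.4%). It was near it for antigen presentation (29.6% against 29.5%) and Hedgehog (23.5% against 26.2%). It was below it for Hox genes (22.2% against 35.0%), the olfactory and vomeronasal receptors (35.6% against 45.0%) and the clock (17.4% against 24.6%).

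**Figure D3:**
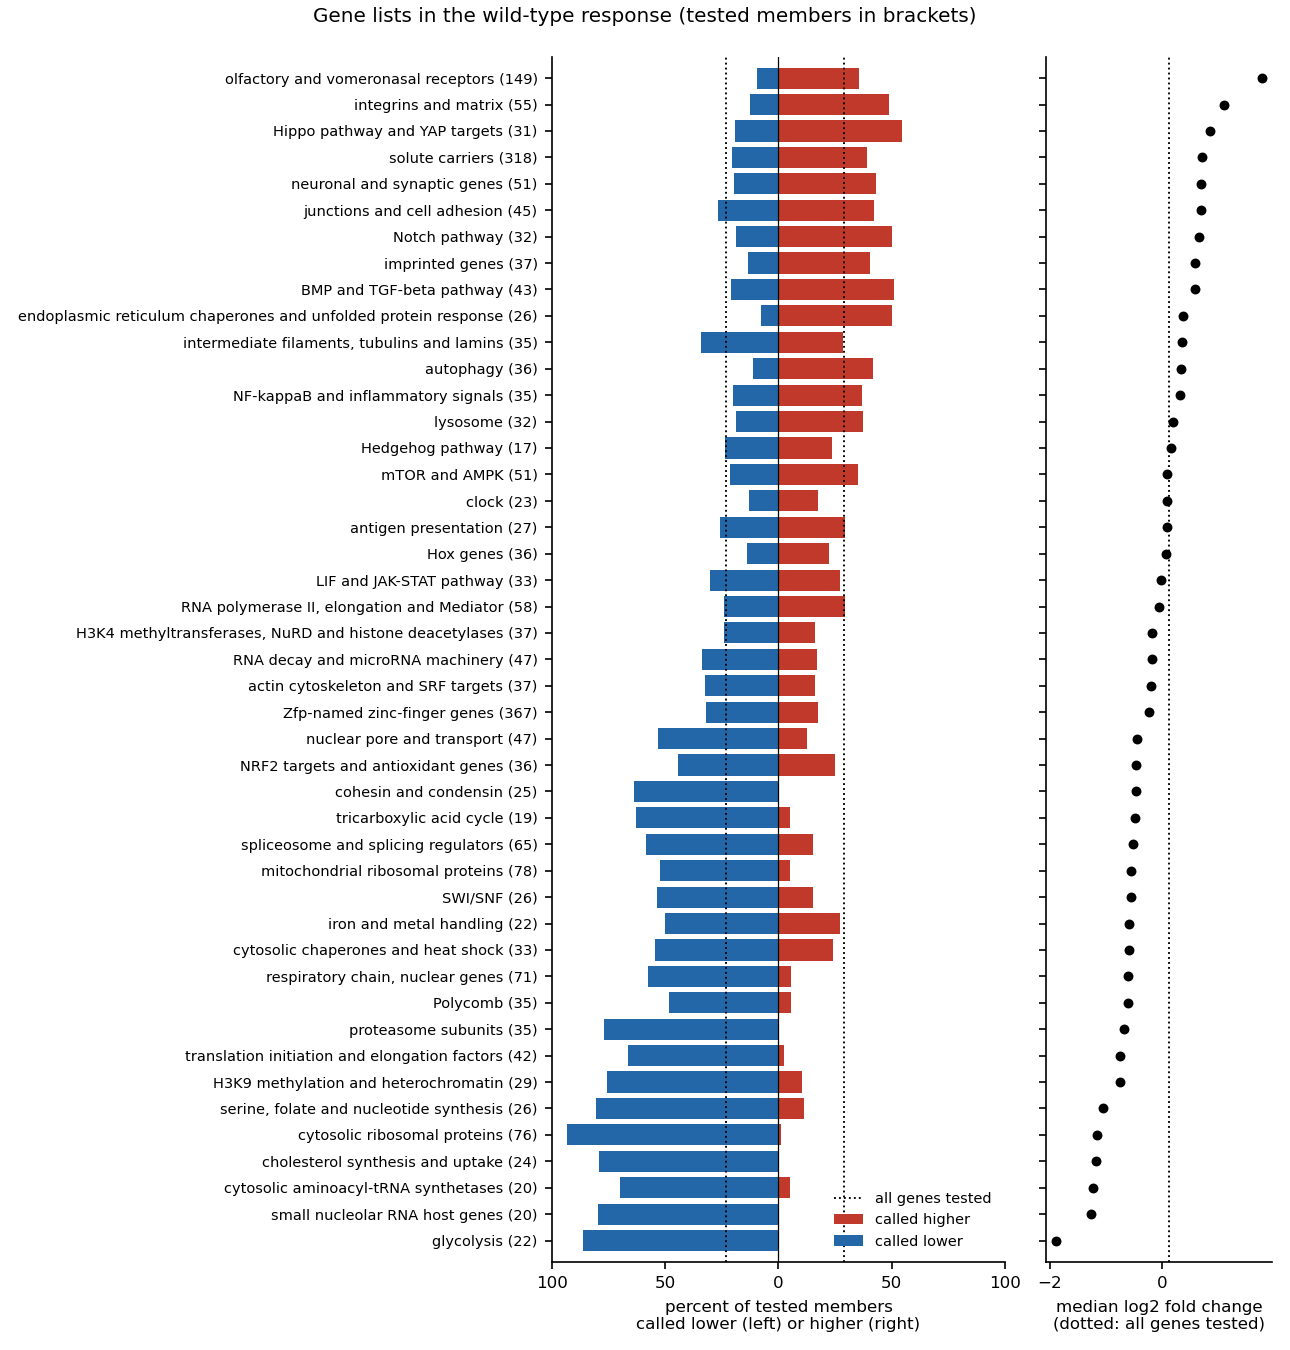
The left panel gives the percent of tested members called lower (blue) and higher (red) in 45 gene lists, with tested members in brackets and dotted lines at 23.4% and 29.0%, the shares over all genes tested. The right panel gives each list's median log2 fold change with a dotted line at 0.13; glycolysis lies lowest at -1.89 and the olfactory and vomeronasal receptors highest at 1.79. Most of these receptors passed the filter through the drug libraries where they were high, so their median carries no weight as a trend.

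Glycolysis, the cytosolic breakdown of glucose to pyruvate and lactate, fell nearly as a whole. Of 22 tested genes 19 fell and 0 rose (edgeR; 2 were higher at an unadjusted p under 0.05 and 2 by DESeq2), with a median of -1.89, and in all 19 that fell both drug libraries lay below both controls. The summed level of all 22 went from 10590 and 11540 CPM to 3412 and 3055 CPM. Aldoc, the aldolase C that splits fructose bisphosphate, was at 23 and 33.8 CPM in controls a and b and 2.06 and 1.93 CPM in drug libraries a and b (log2 fold change -3.83, SE 0.30, adjusted p = 2.1e-05). Aldoa, the main aldolase, fell from 1822 and 1865 CPM to 477 and 387 CPM (log2 fold change -2.09, SE 0.13, adjusted p = 9.5e-06). Each control of both aldolases stood several fold above each drug library. Falls ran along the pathway: hexokinase 2 (Hk2, -2.08), phosphofructokinase P (Pfkp, -3.12), triose phosphate isomerase (Tpi1, -2.65), phosphoglycerate kinase (Pgk1, -2.59), lactate dehydrogenase A (Ldha, -2.19) and the lactate exporter Slc16a3 (-3.06). Ldhb had a log2 fold change of 0.79 (adjusted p = 0.32) and Eno2 of 1.07 (adjusted p = 0.059), neither called. The list's median was -1.89 in wild type, -0.89 in the p53 knockout and -0.52 in the Dux knockout. Aldoc and Aldoa fell further in wild type than in the p53 knockout (differences -3.71, adjusted p = 0.00055, and -1.33, adjusted p = 0.0015) and than in the Dux knockout (-2.59, adjusted p = 0.014, and -1.50, adjusted p = 0.0049). Many glycolytic genes have processed pseudogenes, and how the deposited counting divided reads among such copies is not given; Eno1b, a retrocopy that is among the 8 largest losses in CPM, fell from 2006 and 2212 CPM to 518 and 478 CPM, and its log2 ratio to Eno1 had an SD of 0.121 over the 11 libraries. For glycolysis, the count higher was 3 with the knockout lines as blocks.

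Mitochondrial genes encoded in the nucleus stood nearer than glycolysis to all genes of their level. In the tricarboxylic acid cycle 12 of 19 fell and 1 rose (median -0.48), in the respiratory chain 41 of 71 fell and 4 rose (median -0.60), and among mitochondrial ribosomal proteins 41 of 78 fell and 4 rose (median -0.55). Pdha1, the catalytic subunit of pyruvate dehydrogenase, fell from 411 and 462 CPM to 148 and 153 CPM (log2 fold change -1.54, SE 0.14, adjusted p = 3.9e-05), and Ogdh, a subunit of the oxoglutarate dehydrogenase complex, rose from 88.3 and 85.2 CPM to 115 and 113 CPM (log2 fold change 0.39, SE 0.12, adjusted p = 0.02). Atp5c1, the gamma subunit of ATP synthase, fell from 397 and 428 CPM to 137 and 126 CPM (log2 fold change -1.65, SE 0.19, adjusted p = 0.00014), and Ndufb6, an accessory subunit of complex I, rose from 83.6 and 86.4 CPM to 217 and 217 CPM (log2 fold change 1.35, SE 0.22, adjusted p = 0.00094). Mrpl12 fell from 100.4 and 87.7 CPM to 27.6 and 25.2 CPM (log2 fold change -1.83, SE 0.17, adjusted p = 4.7e-05), and Mrps6 rose from 57.3 and 60.7 CPM to 117 and 128 CPM (log2 fold change 1.05, SE 0.29, adjusted p = 0.014). In each of these 6 genes the groups did not overlap. The call of Ogdh did not hold without any 1 of the 4 wild-type libraries and with the Dux knockout control recovered from its FPKM added, where the adjusted p was 0.077 to 0.13. The call of Mrps6 did not hold without control a, control b or drug library b, where the adjusted p was 0.066 to 0.08. Ndufb6 rose with log2 1.75 in the Dux knockout and had -0.16 in the p53 knockout, the wild-type response differing from the latter (1.51, adjusted p = 0.0094). The 37 genes of the mitochondrial genome had 0 counts in every wild-type library and could not be tested. In the tricarboxylic acid cycle, the count higher was 2 with the knockout lines as blocks and 0 without control a, control b, drug library a or drug library b, and the count lower was 7 without control a or drug library a. For the respiratory chain, the count higher was 10 with the knockout lines as blocks and 2 without control a, control b, drug library a or drug library b. Among mitochondrial ribosomal proteins, the count higher was 7 with the knockout lines as blocks and 2 without control a, control b or drug library b.

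The sterol pathway, which builds cholesterol from acetyl-CoA under control of SREBP2, fell together. Of 24 genes 19 fell and 0 rose (edgeR; 0 at an unadjusted p under 0.05 and 0 by DESeq2), with a median of -1.18. Fdps, the farnesyl diphosphate synthase, fell from 24.4 and 25.3 CPM to 2.90 and 2.79 CPM (log2 fold change -3.13, SE 0.27, adjusted p = 3.3e-05), with each drug library below each control. Squalene synthase (Fdft1, -1.99), the lanosterol demethylase Cyp51 (-1.84), Hmgcs1 (-1.52) and Srebf2 itself (-1.06) fell too. The median was -1.18 in wild type, -0.17 in the p53 knockout and -1.16 in the Dux knockout. Fdps differed from the p53 knockout response by -2.86, adjusted p = 0.0011. Scd1, the stearoyl-CoA desaturase of fatty acid synthesis, lies outside the list and fell from 152 and 160.3 CPM to 19.2 and 19.2 CPM (log2 fold change -3.02, SE 0.22, adjusted p = 1.6e-05), against 0.07 in the p53 knockout and -2.29 in the Dux knockout; its difference from the p53 knockout was -3.09, adjusted p = 0.00041. For the sterol list, the count higher was 1 with the knockout lines as blocks.

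Serine, folate and nucleotide synthesis fell in 21 of 26 genes and rose in 3 (median -1.05). Psat1, the phosphoserine aminotransferase, fell from 551 and 578 CPM to 77.1 and 79.7 CPM (log2 fold change -2.85, SE 0.14, adjusted p = 5.4e-06). The mitochondrial folate enzymes Mthfd1l (-2.41), Mthfd2 (-1.72) and Shmt2 (-2.03) and the purine enzymes Paics (-2.26) and Ppat (-1.74) fell with it. Against these, Cad, the enzyme that starts pyrimidine synthesis, rose from 321 and 298 CPM to 1003 and 1129 CPM (log2 fold change 1.79, SE 0.13, adjusted p = 1.6e-05). Cad is also 1 of the 8 largest gains in CPM among the genes ranked below, which leave out names of the 2-cell pattern. Its log2 was 0.14 in the p53 knockout and 1.35 in the Dux knockout, and wild type differed from the p53 knockout by 1.65, adjusted p = 0.00066. Among solute carriers, Slc7a3, a transporter of cationic amino acids, went from 114 and 109 CPM to 3.51 and 3.39 CPM (log2 fold change -5.01, SE 0.23, adjusted p = 4.8e-06), the largest fall of the called solute carriers of at least 5 CPM. Slc7a3 had -0.93 in the p53 knockout and -4.75 in the Dux knockout, and its difference from the p53 knockout was -4.09, adjusted p = 0.0002.

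Most genes of protein synthesis fell, the synthetases and factors in shares nearer to those of all genes at their levels than the ribosomal proteins. Cytosolic ribosomal proteins fell in 71 of 76 genes and rose in 1 (median -1.15), aminoacyl-tRNA synthetases fell in 14 of 20 and rose in 1 (median -1.23), and initiation and elongation factors fell in 28 of 42 and rose in 1 (median -0.74). Summed over the ribosomal proteins the level went from 17700 and 19160 CPM to 10220 and 8957 CPM. Rpl38, a large-subunit protein, fell from 34.3 and 34.8 CPM to 10.4 and 9.97 CPM (log2 fold change -1.76, SE 0.17, adjusted p = 4.8e-05), and Rps28, a small-subunit protein, rose from 69.1 and 76.2 CPM to 106 and 89.1 CPM (log2 fold change 0.43, SE 0.14, adjusted p = 0.03). The call of Rps28 did not hold without control a, control b or drug library a and with the Dux knockout control recovered from its FPKM added, where the adjusted p was 0.073 to 0.19. Tars, which charges threonine, fell from 370.2 and 406 CPM to 88.8 and 92.2 CPM (log2 fold change -2.10, SE 0.11, adjusted p = 6.2e-06), and Iars, which charges isoleucine, rose from 257 and 256 CPM to 340.3 and 418 CPM (log2 fold change 0.56, SE 0.14, adjusted p = 0.0089). The call of Iars did not hold without control a, control b or drug library b, where the adjusted p was 0.053 to 0.17. The start-site factors parted in the same way. Eif2s2, the beta subunit of the factor that brings the first tRNA, fell from 423 and 437 CPM to 90.3 and 80.5 CPM (log2 fold change -2.33, SE 0.32, adjusted p = 0.00035), and Eif5, which triggers its release, rose from 316 and 311 CPM to 467 and 504 CPM (log2 fold change 0.63, SE 0.13, adjusted p = 0.0035). The call of Eif5 did not hold without drug library b, where the adjusted p was 0.057. Eef1a1, the elongation factor that delivers tRNAs, was among the largest losses in CPM, from 4866 and 5045 CPM to 2643 and 2394 CPM (log2 fold change -0.98, SE 0.14, adjusted p = 0.00051), as was Rpl4, from 2149 and 2401 CPM to 1043 and 903 CPM (log2 fold change -1.23, SE 0.14, adjusted p = 0.00012). The ribosomal protein list had medians of -1.15 in wild type, -0.78 in the p53 knockout and -0.37 in the Dux knockout. Of the 76 genes 1 differed upward and 5 downward from the p53 knockout, beside 10.3% and 9.9% of all genes tested. The Dux knockout median rests on 1 control library, with Rpl38 at 26.7 CPM there and 55.0 CPM in the control recovered from its FPKM. With the recovered control added, the difference of Rpl38 from the Dux knockout was -0.69 in place of -1.34. These genes have many processed pseudogenes; Rpl3-ps1, annotated as a pseudogene, itself fell from 2349 and 2771 CPM to 981 and 851 CPM, and its log2 ratio to Rpl3 had an SD of 0.387 over the 11 libraries. For ribosomal proteins, the count higher was 0 without control a, control b or drug library a. For the synthetases, the count higher was 2 with the knockout lines as blocks and 0 without control a, control b or drug library b. Among the factors, the count higher was 2 with the knockout lines as blocks and 0 without drug library b.

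RNA linked to ribosome production fell too. Of 20 host genes of small nucleolar RNAs 16 fell and 0 rose (edgeR; 0 at an unadjusted p under 0.05 and 0 by DESeq2), with a median of -1.26. Snhg4 fell from 80.6 and 88.2 CPM to 16.3 and 15.1 CPM (log2 fold change -2.42, SE 0.29, adjusted p = 0.00016), and the growth-arrest transcript Gas5 fell as well (-2.08). Snhg4 has no position in the annotation used, so its count in the Dux knockout control recovered from its FPKM was set to 0. With that control added the adjusted p was 0.17, which rests on this 0 and does not test the call. Ncl, the nucleolar protein nucleolin, fell from 2495 and 2582 CPM to 1002 and 1019 CPM (log2 fold change -1.33, SE 0.14, adjusted p = 8.8e-05), with each drug library near the other. Its log2 was -1.03 in the p53 knockout and -1.31 in the Dux knockout.

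Proteasome subunits mostly fell, while cytosolic chaperones both fell and rose. Proteasome subunits fell in 27 of 35 genes and rose in 0 (edgeR; 1 at an unadjusted p under 0.05 and 1 by DESeq2), with a median of -0.68. Psmb5, the subunit with chymotrypsin-like activity, fell from 55.7 and 55.9 CPM to 19.8 and 20.1 CPM (log2 fold change -1.49, SE 0.16, adjusted p = 0.00011). Cytosolic chaperones fell in 18 of 33 and rose in 8 (median -0.59). Their share of rises, 24.2%, stood above the 13.5% of all genes at the same levels, and their share of falls was near that of such genes. Hsp90aa1, the inducible HSP90, fell from 1810 and 1999 CPM to 569 and 576 CPM (log2 fold change -1.73, SE 0.14, adjusted p = 2.2e-05), and the chaperonin subunits Cct3 (-1.54) and Tcp1 (-1.39) fell. Cryab, a small heat shock protein, rose from 19.3 and 17.3 CPM to 216 and 189 CPM (log2 fold change 3.47, SE 0.75, adjusted p = 0.0044), and the inducible HSP70 genes Hspa1a (3.03) and Hspa1b (1.99) and the testis-enriched Hspa2 (3.10) rose. For the proteasome, the count higher was 1 with the knockout lines as blocks. Among cytosolic chaperones, the count higher was 5 without control b.

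Among chaperones and sensors of the endoplasmic reticulum 13 of 26 rose and 2 fell (median 0.38). Pdia3, a protein disulphide isomerase, was among the largest gains in CPM, from 399 and 405 CPM to 862 and 924 CPM (log2 fold change 1.15, SE 0.18, adjusted p = 0.00081). Dnajb9, a co-chaperone of BiP that marks unfolded-protein signalling, rose from 12.7 and 13.5 CPM to 51.4 and 55.0 CPM (log2 fold change 2.02, SE 0.15, adjusted p = 1.6e-05). The sensors Ern1 (0.68) and Eif2ak3 (1.11), BiP (Hspa5, 0.62), calreticulin (Calr, 0.78) and the degradation factors Edem1 (1.49) and Syvn1 (1.35) rose. Xbp1 had -0.15 (adjusted p = 0.36) and Ddit3 -0.03 (adjusted p = 0.91), neither called. Sec61b, a subunit of the translocation channel, fell from 27.6 and 23.6 CPM to 15.2 and 13.8 CPM (log2 fold change -0.82, SE 0.22, adjusted p = 0.014). The call of Sec61b did not hold without control a or drug library b, where the adjusted p was 0.05 to 0.088. The list's median was 0.38 in wild type, -0.17 in the p53 knockout and 0.10 in the Dux knockout. Dnajb9 had 0.06 in the p53 knockout and 0.58 in the Dux knockout, and the wild-type rise was larger than in either (differences 1.96, adjusted p = 0.00054, and 1.44, adjusted p = 0.0095). For this list, the count lower was 0 without control a or drug library b and 1 without control b or drug library a.

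Upstream sequences are shown for 4 genes that lead their lists, chosen after their values and motif matches were seen. They are 250 bases each of RefSeq sequence of GRCm38.p6, 5′ to 3′ and ending at the base before the start annotated there. GENCODE places some starts elsewhere, at 44210326 for Dnajb9, 28380253 for Zfp36 and 119267887 for Gaa. By GENCODE the stretches of Dnajb9 and Zfp36 lie within the gene, and that of Gaa runs past its start. Capitals mark the motifs named first for each gene, out of 12 searched on both strands, and such matches are descriptions, not sites. Dnajb9 (chr12:44210069-44210318, minus strand) holds the E-box CACGTG from base 144, present in 6.02% of 32851 promoters of this length, and the CCAAT box CCAAT from base 186, present in 33.8%. Gaa (chr11:119267713-119267962, plus strand), a lysosomal gene described next, holds the E-box from base 111. Zfp36 (chr7:28379229-28379478, minus strand), an RNA decay gene, holds a CArG box, the element read by serum response factor, from base 193, present in 1.47%. Mt2 (chr8:94172368-94172617, plus strand), a metallothionein, holds the metal response core TGCGCNC from base 123, present in 12.5%, and TGCACNC from base 28 and, on the other strand, base 201, present in 10.4%. Matches left in lower case were TGCGCNC in Gaa (bases 203 and, on the other strand, 232) and in Dnajb9 (bases 15 and 24), TGACTCA and the overlapping TGACNNNGC in Mt2 (base 172), present in 4.46% and 10.2% of promoters, and GGAATG in Gaa (base 191, other strand), present in 12.6%.
Dnajb9: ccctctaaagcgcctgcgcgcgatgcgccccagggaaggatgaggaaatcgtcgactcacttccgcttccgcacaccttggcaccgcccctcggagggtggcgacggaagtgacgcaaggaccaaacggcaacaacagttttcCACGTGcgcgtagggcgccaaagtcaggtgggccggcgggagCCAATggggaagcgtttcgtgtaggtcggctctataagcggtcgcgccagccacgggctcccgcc
Gaa: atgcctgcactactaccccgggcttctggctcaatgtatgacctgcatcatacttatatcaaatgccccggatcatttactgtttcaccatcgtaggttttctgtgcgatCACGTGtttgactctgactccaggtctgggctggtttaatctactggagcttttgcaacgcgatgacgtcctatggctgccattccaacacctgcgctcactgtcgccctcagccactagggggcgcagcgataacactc
Zfp36: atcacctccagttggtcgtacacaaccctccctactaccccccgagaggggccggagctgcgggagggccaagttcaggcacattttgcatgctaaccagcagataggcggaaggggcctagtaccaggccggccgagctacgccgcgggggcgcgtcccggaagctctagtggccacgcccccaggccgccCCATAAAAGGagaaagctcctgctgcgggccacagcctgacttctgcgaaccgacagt
Mt2: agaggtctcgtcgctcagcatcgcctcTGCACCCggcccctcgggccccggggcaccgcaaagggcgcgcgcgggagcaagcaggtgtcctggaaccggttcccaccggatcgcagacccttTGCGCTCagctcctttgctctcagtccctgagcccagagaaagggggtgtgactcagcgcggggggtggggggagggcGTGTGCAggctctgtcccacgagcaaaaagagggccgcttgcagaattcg

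Lysosomal genes rose in 12 of 32 cases and fell in 6 (median 0.20), and autophagy genes rose in 15 of 36 and fell in 4 (median 0.34). Gaa, the acid glucosidase that degrades glycogen, with the E-box shown above, rose from 60.5 and 53.9 CPM to 390.4 and 374 CPM (log2 fold change 2.74, SE 0.34, adjusted p = 0.0002). Ctsd, the protease cathepsin D, rose from 212 and 209 CPM to 832 and 767 CPM (log2 fold change 1.93, SE 0.18, adjusted p = 4.9e-05). Man2b1 (chr8:85083270-85098282, plus strand), the lysosomal alpha-mannosidase, is in none of the lists and had the largest gain in CPM of the genes ranked, from 48.6 and 47.2 CPM to 1016 and 1047 CPM (log2 fold change 4.43, SE 0.47, adjusted p = 8.8e-05). All 3 rose in the Dux knockout too, by 3.26, 2.26 and 4.42. Against the p53 knockout the wild-type responses differed by 2.42, adjusted p = 0.0064 for Gaa, by 1.55, adjusted p = 0.0033 for Ctsd and by 3.43, adjusted p = 0.0045 for Man2b1. Tpp1 (2.21), Gusb (1.67) and Psap (1.06) rose as well. The regulators Tfeb (-1.75) and Mitf (-2.05) fell, and Tfe3 had 0.26 (adjusted p = 0.17). Neu1, the lysosomal sialidase, fell from 15.4 and 17.8 CPM to 3.73 and 2.89 CPM (log2 fold change -2.32, SE 0.23, adjusted p = 5.8e-05), unlike its 0.01 in the Dux knockout (difference -2.33, adjusted p = 0.0082). Dram1, a lysosomal membrane protein of autophagy, rose from 0.699 and 0.523 CPM to 17.8 and 16.0 CPM (log2 fold change 4.78, SE 0.51, adjusted p = 9e-05), and Vmp1, which helps build autophagosomes, fell from 880.5 and 1014 CPM to 472 and 395 CPM (log2 fold change -1.13, SE 0.17, adjusted p = 0.00067). In every gene given here with library values the drug and control libraries did not overlap. For the lysosome, the count lower was 3 without control b or drug library a. For autophagy, the count lower was 9 with the knockout lines as blocks, 1 without control a or drug library b and 2 without control b.

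Splicing factors fell in 38 of 65 genes and rose in 10 (median -0.52), a share of falls near that of all genes at the same levels. Hnrnpl, an RNA-binding splicing regulator, fell from 515 and 493 CPM to 176 and 178 CPM (log2 fold change -1.51, SE 0.11, adjusted p = 1.5e-05). Srsf12, a small serine-arginine protein, rose from 0.855 and 1.50 CPM to 13.6 and 14.4 CPM (log2 fold change 3.57, SE 0.33, adjusted p = 4.3e-05). Prpf8, the core protein of the spliceosome's active site, rose from 518 and 479 CPM to 962 and 1043 CPM (log2 fold change 1.01, SE 0.11, adjusted p = 0.00012). The epithelial regulator Esrp1 (2.01) and the muscleblind genes Mbnl1 (0.53) and Mbnl2 (1.14) rose, and the branch-site protein Sf3b1 (-1.08) and Srsf1 (-0.99) fell. Hnrnpl fell further than in either knockout (differences -0.72, adjusted p = 0.011 from p53, and -0.72, adjusted p = 0.049 from Dux). For splicing, the count higher was 4 without control a, control b or drug library b.

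Genes of RNA polymerase II and its elongation control were divided, 17 of 58 rising and 14 falling (median -0.05). Nelfa (chr5:33897916-33936413, minus strand), a subunit of the pausing factor NELF, rose from 63.2 and 58.3 CPM to 479.9 and 579.8 CPM (log2 fold change 3.12, SE 0.15, adjusted p = 5e-06), while Nelfe fell (-0.97). Polr2a, the catalytic subunit (1.65), the P-TEFb inhibitor Hexim1 (1.73), the PAF complex members Ctr9 (1.62) and Leo1 (1.25) and the elongation factors Ell (1.32) and Ell3 (1.59) rose. The small shared subunit Polr2e fell from 216 and 218 CPM to 71.3 and 56.0 CPM (log2 fold change -1.77, SE 0.20, adjusted p = 0.00014), and both FACT subunits fell (Supt16, -1.16, and Ssrp1, -1.26). Nelfa had 0.37 in the p53 knockout and -0.43 in the Dux knockout, differing from wild type by 2.75, adjusted p = 0.00021 and by 3.56, adjusted p = 0.00018. For this list, the count higher was 10 without drug library b, and the count lower was 22 with the knockout lines as blocks, 8 without control b and 9 without control a, drug library a or drug library b.

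Factors of RNA decay and microRNAs fell in 16 of 47 genes and rose in 8 (median -0.18). Dcp2, the decapping enzyme, fell from 193 and 186 CPM to 48.5 and 48.9 CPM (log2 fold change -1.96, SE 0.12, adjusted p = 8.8e-06), and the exosome subunits Exosc2 (-1.27), Exosc7 (-1.27) and Exosc8 (-1.15) fell. Zfp36 (tristetraprolin), which directs decay of AU-rich messages and carries the CArG box shown above, rose from 3.26 and 4.11 CPM to 21.2 and 24.4 CPM (log2 fold change 2.63, SE 0.22, adjusted p = 2.7e-05). It differed from both knockouts (by 1.65, adjusted p = 0.0052, and by 2.03, adjusted p = 0.01). Among Argonautes, Ago1 (-1.56) and Ago2 (-0.92) fell and Ago4 (1.81) rose. In RNA decay, the count higher was 14 with the knockout lines as blocks and 4 without control b or drug library b. Nuclear pore and transport genes fell in 25 of 47 and rose in 6 (median -0.45), no more often than all genes at their levels. Seh1l, a pore scaffold protein, fell from 236 and 255 CPM to 67.4 and 67.2 CPM (log2 fold change -1.87, SE 0.13, adjusted p = 1.3e-05), while the pore membrane proteins and their partner, Ndc1, Pom121 (1.25) and Aaas (1.25), rose. Ndc1 went from 113 and 112 CPM to 365 and 367 CPM (log2 fold change 1.70, SE 0.15, adjusted p = 3.3e-05). The exportin Xpo1 (-1.22) and the importins Kpnb1 (-1.26) and Ipo5 (-1.66) fell.

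Of the 5 chromatin lists, heterochromatin had the highest share of falls. In H3K9 methylation and heterochromatin 22 of 29 fell and 3 rose (median -0.74). Ehmt2, the G9a methyltransferase that places H3K9 dimethylation, fell from 138 and 132 CPM to 41.8 and 36.6 CPM (log2 fold change -1.78, SE 0.13, adjusted p = 1.6e-05). The corepressor Trim28 (-1.64), the heterochromatin proteins Cbx5 (-1.66) and Cbx3 (-1.61), Uhrf1 (-1.64), which recruits maintenance DNA methylation, and Setdb1 (-0.71) fell. Zfp809, a zinc-finger protein that silences retroviruses through Trim28, rose from 86.7 and 80.8 CPM to 165 and 181 CPM (log2 fold change 1.04, SE 0.24, adjusted p = 0.0055). The list's median was -0.74 in wild type, -0.39 in the p53 knockout and -0.65 in the Dux knockout. Ehmt2 fell further than in the p53 knockout (-1.50, adjusted p = 0.00093) and the Dux knockout (-1.23, adjusted p = 0.012).

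Polycomb genes fell in 17 of 35 and rose in 2 (median -0.61). The chromodomain subunits Cbx2 (-2.37) and Cbx8 (-2.06) and the methyltransferase Ezh2 (-1.05) fell. Cbx7, a chromodomain subunit of stem cells, had -0.24 (adjusted p = 0.12). Phc2, a polyhomeotic subunit, rose from 19.4 and 16.4 CPM to 65.4 and 67.1 CPM (log2 fold change 1.89, SE 0.17, adjusted p = 4.4e-05). SWI/SNF remodelling genes fell in 14 of 26 and rose in 4 (median -0.55), and both leading genes were plant-homeodomain subunits of neural or muscle complexes. Dpf1 fell from 12.3 and 13 CPM to 2.38 and 2.66 CPM (log2 fold change -2.33, SE 0.27, adjusted p = 0.00015), and Dpf3 rose from 1.01 and 1.57 CPM to 6.31 and 6.78 CPM (log2 fold change 2.34, SE 0.66, adjusted p = 0.015). The call of Dpf3 did not hold without control a, control b or drug library b, where the adjusted p was 0.056 to 0.1. The ATPases also parted, Smarca4 falling (-0.51) and Smarca2 rising (1.93). For Polycomb, the count higher was 4 with the knockout lines as blocks, and the count lower was 11 without control a.

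H3K4 methyltransferases, NuRD and histone deacetylases gave 6 rises and 9 falls of 37 (median -0.18). The class IIa deacetylases moved apart: Hdac9 (chr12:34047580-34917095, minus strand) rose from 4.93 and 4.19 CPM to 74.1 and 97.8 CPM (log2 fold change 4.24, SE 0.29, adjusted p = 1.3e-05) and Hdac7 fell from 10.8 and 10.5 CPM to 1.54 and 1.33 CPM (log2 fold change -2.88, SE 0.30, adjusted p = 8.5e-05), with Hdac5 falling (-1.17) and Hdac4 rising (0.64). The core subunits Dpy30 (-2.03) and Wdr5 (-1.78) fell. Cohesin and condensin genes fell in 16 of 25 cases and rose in 0 (edgeR; 0 at an unadjusted p under 0.05 and 0 by DESeq2; median -0.46). Pds5a, which regulates cohesin on chromatin, fell from 248 and 262 CPM to 94.3 and 102 CPM (log2 fold change -1.38, SE 0.14, adjusted p = 7.7e-05), close to its -1.21 in the p53 knockout and -1.37 in the Dux knockout. For the H3K4 and deacetylase list, the count higher was 11 with the knockout lines as blocks and 2 without control a, control b or drug library b, and the count lower was 16 with the knockout lines as blocks. For cohesin and condensin, the count higher was 1 with the knockout lines as blocks, and the count lower was 7 without control b and 10 without drug library a.

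**Figure D4:**
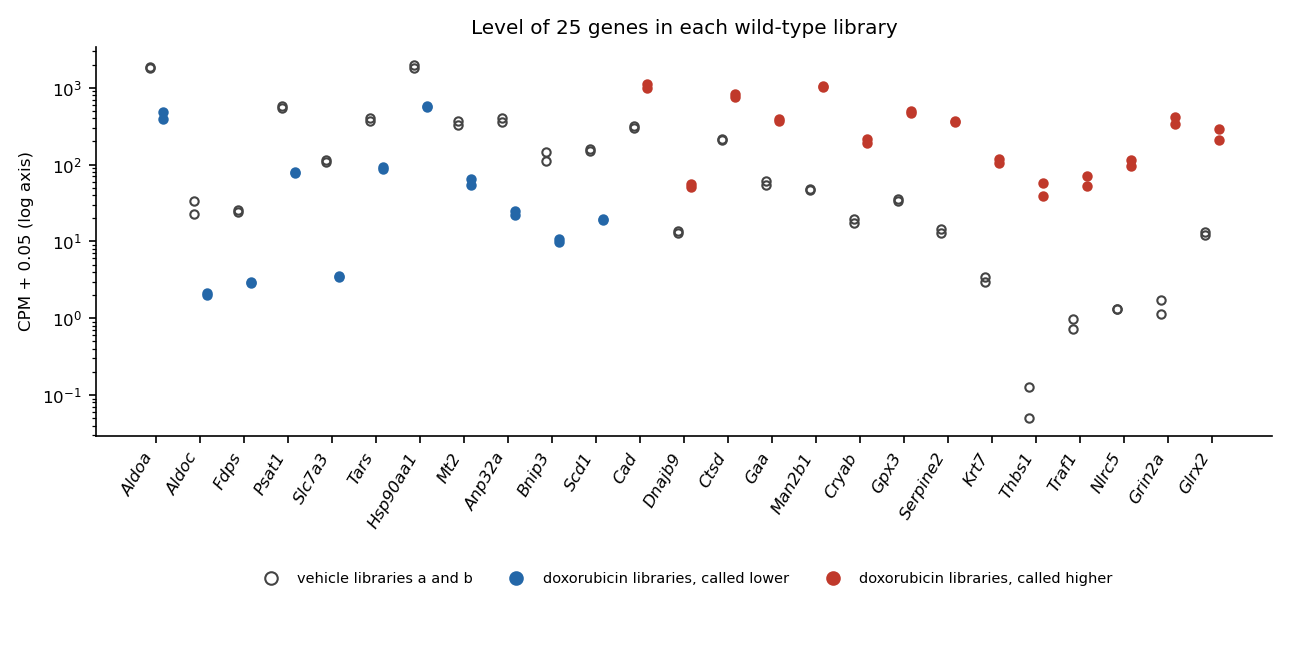
Points give the level of 25 genes in each wild-type library on a log axis of CPM + 0.05, open for the 2 vehicle libraries and filled for the 2 doxorubicin libraries (blue where the gene was called lower, red where it was called higher). In every gene shown both drug libraries lie on the same side of both controls, from Slc7a3, at 114 and 109 CPM against 3.51 and 3.39 CPM, to Grin2a, at 1.67 and 1.08 CPM against 338 and 420.4 CPM.

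The BMP, Hippo and Notch lists each held more rises than falls. BMP and TGF-beta genes rose in 22 of 43 cases and fell in 9 (median 0.60). Among ligands and extracellular inhibitors, Tgfb2 (3.41), Bmp7 (1.38) and noggin (Nog, 2.92) rose, while the activin subunit Inhbb fell from 19.3 and 21.2 CPM to 2.64 and 1.40 CPM (log2 fold change -3.32, SE 0.66, adjusted p = 0.0027). Of the receptors, Bmpr1b (3.39), Tgfbr1 (1.26) and Acvr1 (1.06) rose and Bmpr1a (-0.54) and Acvr1b (-0.91) fell. All 4 Id genes, known direct targets of BMP signalling, rose. Id3 went from 4.35 and 3.14 CPM to 34.8 and 53 CPM (log2 fold change 3.55, SE 0.73, adjusted p = 0.0034), and Id1 (2.60), Id2 (2.55) and Id4 (1.27) followed. The inhibitory Smad6 (-1.43) and Smad7 (-0.74), which are also known targets, fell. Medians were 0.60 in wild type, -0.02 in the p53 knockout and 0.33 in the Dux knockout. In this list, the count higher was 12 without drug library b and 13 without control a, and the count lower was 4 without control b and 5 without control a or drug library a.

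In the Hippo pathway, a kinase cascade that holds the coactivators YAP and TAZ out of the nucleus, 17 of 31 genes rose and 6 fell (median 0.87). Vgll3, a cofactor of TEAD proteins, rose from 0.233 and 0.374 CPM to 10.1 and 11.5 CPM (log2 fold change 5.13, SE 1.05, adjusted p = 0.0033). The angiomotins Amot (2.04), Amotl1 (2.13) and Amotl2 (1.75), the kinase Lats2 (1.37) and the YAP target Axl (3.33) rose. Tead4, the TEAD factor of early embryos, fell from 57.3 and 58.7 CPM to 16.9 and 22 CPM (log2 fold change -1.58, SE 0.35, adjusted p = 0.005), Tead2 fell (-1.12) and Tead3 rose (1.62). Yap1 had -0.11 (adjusted p = 0.48), and TAZ (Wwtr1) fell (-0.47).

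Notch genes rose in 16 of 32 and fell in 6 (median 0.67). Heyl, a transcriptional target of Notch, rose from 0 and 0.150 CPM to 8.49 and 7.88 CPM (log2 fold change 6.69, SE 0.74, adjusted p = 0.00019). In the p53 knockout it went from 0 and 0 CPM to 0.139 and 0.214 CPM and was not called. In the Dux knockout it was at 0 CPM in the control library and at 3.83 and 6.15 CPM in the drug libraries. Fitted fold changes of Heyl in the knockouts depend on the prior count and are not given. The ligands Dll1 (4.93) and Jag2 (3.16), the receptor Notch3 (2.01) and the feedback gene Nrarp (3.61) rose, while Notch4 (-2.99), Hes1 (-1.26) and the nuclear effector Rbpj (-0.84) fell. Dtx1, a ubiquitin ligase of the pathway, fell from 16.8 and 20.1 CPM to 1.54 and 1.26 CPM (log2 fold change -3.71, SE 0.27, adjusted p = 1.6e-05). Its responses of 0.00 in the p53 knockout and -1.0 in the Dux knockout differed from wild type by -3.72, adjusted p = 0.0004 and by -2.71, adjusted p = 0.0075. Hedgehog genes divided evenly, 4 of 17 rising and 4 falling (median 0.16). The ligand Dhh rose from 0.466 and 0.374 CPM to 7.66 and 7.74 CPM (log2 fold change 4.19, SE 0.61, adjusted p = 0.00052), whereas the receptor Ptch1, itself a target of the pathway, fell from 63.5 and 66.6 CPM to 10.3 and 9.17 CPM (log2 fold change -2.74, SE 0.36, adjusted p = 0.00028), as did Gli2 (-1.84).

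NF-kappaB and inflammatory genes rose in 13 of 35 and fell in 7 (median 0.32). Traf1 (chr2:34941750-34961772, minus strand), an adaptor of TNF receptors, rose from 0.932 and 0.673 CPM to 52.4 and 71.8 CPM (log2 fold change 6.27, SE 0.32, adjusted p = 5.4e-06). Both subunits of the canonical dimer rose (Nfkb1, 2.38, and Rela, 0.80), as did the growth factor Csf1 (3.47) and the feedback inhibitor Tnfaip3 (1.31). Bcl3, a nuclear inhibitor-like cofactor, fell from 43.0 and 44.6 CPM to 6.82 and 6.98 CPM (log2 fold change -2.67, SE 0.13, adjusted p = 5e-06), and Relb (-0.65) and Nfkbid (-3.23) fell. Nfkbia, the inhibitor that NF-kappaB induces, had -0.12 (adjusted p = 0.66). Traf1 rose in all 3 genotypes, where 9.31% of tested genes rose in the p53 knockout and 14.5% in the Dux knockout (1.89 in the p53 knockout and 3.35 in the Dux knockout), and most in wild type (differences 4.38, adjusted p = 0.00035, and 2.92, adjusted p = 0.01). The list's median was 0.32 in wild type, 0.65 in the p53 knockout and 0.51 in the Dux knockout.

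LIF and JAK-STAT genes, of a pathway that maintains these cells in culture, divided evenly, 9 of 33 rising and 10 falling (median -0.02). Both LIF receptor chains fell, Lifr (-1.41) and Il6st (-1.74), together with the target Socs3 (-1.28), and Stat3 had -0.25 (adjusted p = 0.091). Stat6, the signal transducer of interleukin-4, fell from 48.8 and 46.3 CPM to 9.94 and 8.54 CPM (log2 fold change -2.36, SE 0.25, adjusted p = 9.7e-05), while its receptor Il4ra rose from 0.544 and 1.27 CPM to 5.53 and 5.12 CPM (log2 fold change 2.54, SE 0.49, adjusted p = 0.0024). The oncostatin receptor Osmr (4.24) rose. Stat6 differed from both knockouts (by -2.32, adjusted p = 0.0023, and by -1.96, adjusted p = 0.025). Antigen presentation, a class of interferon-responsive genes, rose in 8 of 27 and fell in 7 (median 0.10). Nlrc5 (chr8:94434356-94527272, plus strand), the transactivator of MHC class I genes, rose from 1.28 and 1.27 CPM to 96.5 and 114 CPM (log2 fold change 6.36, SE 0.60, adjusted p = 5e-05), with B2m (1.78), Tap2 (3.93), the immunoproteasome subunit Psmb9 (4.70) and Cd274 (4.04). H2-K1 had 0.42 (adjusted p = 0.45) and H2-D1 0.79 (adjusted p = 0.24). Psmb10, another immunoproteasome subunit, fell from 13.3 and 15.5 CPM to 2.09 and 2.33 CPM (log2 fold change -2.70, SE 0.65, adjusted p = 0.0076). The call of Psmb10 did not hold without drug library a, where the adjusted p was 0.055. For antigen presentation, the count lower was 2 without control a, 3 without control b or drug library a and 4 without drug library b.

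Genes of mTOR and AMPK signalling rose in 18 of 51 and fell in 11 (median 0.10). Irs1, an adaptor of the insulin receptor, rose from 0.622 and 0.748 CPM to 5.63 and 6.51 CPM (log2 fold change 3.14, SE 0.50, adjusted p = 0.00086), with Irs2 (2.52), folliculin (Flcn, 1.72) and Foxo3 (0.99). Rragb, a Rag GTPase, fell from 8.0 and 11.5 CPM to 2.77 and 2.39 CPM (log2 fold change -1.92, SE 0.50, adjusted p = 0.011). The call of Rragb did not hold without control b, drug library a or drug library b, where the adjusted p was 0.052 to 0.067. Mtor had -0.24 (adjusted p = 0.11) and Rptor rose (1.32). Clock genes gave 4 rises and 3 falls of 23 (median 0.10), both shares below those over all genes. Rorb, a nuclear receptor, rose from 0.0777 and 0 CPM to 10.4 and 9.84 CPM (log2 fold change 7.92, SE 0.76, adjusted p = 5.3e-05), and Ciart, a repressor of the clock, fell from 7.46 and 7.03 CPM to 1.87 and 1.43 CPM (log2 fold change -2.13, SE 0.42, adjusted p = 0.0027). For mTOR and AMPK, the count lower was 5 without control b and 7 without drug library b. For the clock, the count lower was 5 with the knockout lines as blocks.

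NRF2 targets and antioxidant genes fell in 16 of 36 cases and rose in 9 (median -0.46). Their share of rises, 25%, stood above the 15.4% of all genes at the same levels, and their share of falls was near that of such genes. Gsta4, a glutathione transferase, fell from 442 and 478 CPM to 82.3 and 71.9 CPM (log2 fold change -2.58, SE 0.20, adjusted p = 1.9e-05), with Gpx4 (-1.93), which removes lipid peroxides, and the superoxide dismutase Sod2 (-1.97). Gpx3, the secreted glutathione peroxidase, rose from 36.0 and 33.7 CPM to 493 and 469.7 CPM (log2 fold change 3.79, SE 0.47, adjusted p = 0.00021), and Hmox1 (1.37) and Txnrd1 (0.99) rose. Iron and metal genes fell in 11 of 22 and rose in 6 (median -0.58), the rises being 27.3% against 19.9% of all genes at the same levels. Mt2, a zinc-binding metallothionein whose metal response cores are shown above, fell from 332 and 369 CPM to 64.5 and 54.1 CPM (log2 fold change -2.56, SE 0.25, adjusted p = 5.7e-05), and its neighbour Mt1 fell (-2.55). For iron, the uptake receptor Tfrc fell (-1.69) while the storage subunit Fth1 (1.49) and the exporter Slc40a1 (3.64) rose. Slc39a14, a zinc and iron importer, rose from 16.2 and 16.8 CPM to 55.9 and 54.5 CPM (log2 fold change 1.74, SE 0.51, adjusted p = 0.019). The call of Slc39a14 did not hold without any 1 of the 4 wild-type libraries, where the adjusted p was 0.065 to 0.095. Mt2 had log2 -1.24 in the p53 knockout and -1.98 in the Dux knockout, and wild type differed from the p53 knockout by -1.32, adjusted p = 0.024. For NRF2, the count higher was 4 without control a, control b, drug library a or drug library b.

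Integrins and matrix genes rose in 27 of 55 and fell in 7 (median 1.11). Thbs1, the matricellular protein thrombospondin-1, rose from 0.0777 and 0 CPM to 39.5 and 58.0 CPM (log2 fold change 10.19, SE 0.98, adjusted p = 5.3e-05). The integrins Itga2 (6.83), Itgb4 (2.89) and Itga6 (1.59), laminin beta 3 (Lamb3, 4.20) and the plasminogen activators Plau (4.55) and Plat (4.47) rose. Fibronectin (Fn1, -1.42), laminin alpha 1 (Lama1, -1.78) and the basement membrane linker nidogen (Nid1) fell. Nid1 went from 268 and 276 CPM to 79.0 and 70.5 CPM (log2 fold change -1.86, SE 0.18, adjusted p = 5.8e-05), differing from the p53 knockout by -1.45, adjusted p = 0.0045. The fibroblast markers summed above rose beside this list. Junction and adhesion genes rose in 19 of 45 and fell in 12 (median 0.70). Ctnna2 (chr6:76881637-77979699, minus strand), the neuronal alpha-catenin, rose from 0.893 and 0.636 CPM to 62.0 and 84.3 CPM (log2 fold change 6.58, SE 0.39, adjusted p = 8.8e-06), against 1.40 in the p53 knockout and -0.23 in the Dux knockout. Ncam1 fell from 33.9 and 30.7 CPM to 8.94 and 7.11 CPM (log2 fold change -2.01, SE 0.27, adjusted p = 0.00035), and the E-cadherin gene Cdh1 (-0.69) and Epcam (-1.22) fell, while P-cadherin (Cdh3, 2.65) and the desmosomal Pkp1 (3.11) and Dsp (1.23) rose. For junctions, the count lower was 7 without drug library a.

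Intermediate filament, tubulin and lamin genes gave 10 rises and 12 falls of 35 (median 0.37). Krt7, a keratin of simple epithelia and of trophoblast, rose from 2.88 and 3.37 CPM to 118 and 104 CPM (log2 fold change 5.15, SE 0.35, adjusted p = 1.2e-05), and Krt19 (3.16), Krt18 (2.35) and vimentin (Vim, 0.91) rose. Stmn2, which destabilises microtubules, fell from 207 and 206 CPM to 21.3 and 18.2 CPM (log2 fold change -3.39, SE 0.23, adjusted p = 1.3e-05). The main tubulins Tuba1b (-1.65) and Tubb5 (-1.50) and the lamins Lmnb1 (-1.64) and Lmnb2 (-1.42) fell. Krt7 rose in the Dux knockout (5.51) and differed from the p53 knockout by 4.87, adjusted p = 0.00046. Actin and SRF target genes fell in 12 of 37 and rose in 6 (median -0.20). Cnn1, the smooth muscle calponin, rose from 0.155 and 0.224 CPM to 16.1 and 15.1 CPM (log2 fold change 6.33, SE 0.98, adjusted p = 0.00071), and Myl9, a myosin light chain, fell from 7.19 and 8.08 CPM to 0.837 and 0.797 CPM (log2 fold change -3.22, SE 1.18, adjusted p = 0.045). The call of Myl9 did not hold without any 1 of the 4 wild-type libraries, where the adjusted p was 0.095 to 0.16. Cofilin (Cfl1, -1.40), profilin (Pfn1, -1.23) and beta-actin (Actb, -0.65) fell. Among filaments and tubulins, the count higher was 16 with the knockout lines as blocks and 6 without drug library b. For actin, the count higher was 11 with the knockout lines as blocks.

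Neuronal and synaptic genes rose in 22 of 51 and fell in 10 (median 0.70). Subunits of the NMDA receptor, a glutamate-gated channel, moved in opposite directions. Grin2a (chr16:9567898-9995560, minus strand) rose from 1.67 and 1.08 CPM to 338 and 420.4 CPM (log2 fold change 8.10, SE 0.72, adjusted p = 3.6e-05), with 1.77 in the p53 knockout and 0.97 in the Dux knockout. Grin1 fell from 21.7 and 34.0 CPM to 1.42 and 0.930 CPM (log2 fold change -4.56, SE 0.44, adjusted p = 5.2e-05). Gria1 (7.88) also rose. Imprinted genes rose in 15 of 37 and fell in 5 (median 0.60). Magel2 of the Prader-Willi region rose from 0.155 and 0.150 CPM to 26.6 and 29.7 CPM (log2 fold change 7.50, SE 0.72, adjusted p = 5.2e-05), with H19 (3.96) and Cdkn1c (4.39). The maternally expressed Meg3 cluster fell, Rian going from 420.1 and 436 CPM to 166 and 171 CPM (log2 fold change -1.34, SE 0.19, adjusted p = 0.00041) and Meg3 by -1.25. Peg10, a retrotransposon-derived gene, rose from 118 and 114 CPM to 686 and 997 CPM (log2 fold change 2.86, SE 0.86, adjusted p = 0.02). The call of Peg10 did not hold without control a, control b or drug library b, where the adjusted p was 0.085 to 0.11. For imprinted genes, the count lower was 8 with the knockout lines as blocks and 3 without control a, control b or drug library a.

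Hox genes rose in 8 of 36 and fell in 5 (median 0.08), with Hoxc12 falling from 6.49 and 6.47 CPM to 1.09 and 2.23 CPM (log2 fold change -1.96, SE 0.33, adjusted p = 0.0011). Zfp-named zinc-finger genes, many of which are repressors, fell in 117 of 367 and rose in 65 (median -0.22). Zfp773 fell from 24.9 and 33.4 CPM to 1.38 and 0.864 CPM (log2 fold change -4.69, SE 0.73, adjusted p = 0.00075), and Zfp648 rose from 0.0777 and 0 CPM to 16.5 and 16.8 CPM (log2 fold change 8.64, SE 0.68, adjusted p = 3.6e-05). Of 1435 olfactory and vomeronasal receptor genes 149 passed the filter, of which 53 rose and 14 fell. These receptors are rarely expressed outside sensory neurons. Olfr815 went from 0 in both controls to 10.7 and 12.7 CPM, at least 102-fold above the floor, and Olfr1388 fell from 5.67 and 6.51 CPM to 1.16 and 0.665 CPM (log2 fold change -2.73, SE 0.33, adjusted p = 0.00019). Since most passed through the drug libraries where they were high, the receptors' count and median carry no weight as a trend. Solute carriers rose in 124 of 318 and fell in 65 (median 0.72). For Hox genes, the count higher was 3 without control a, drug library a or drug library b and 5 without control b, and the count lower was 8 with the knockout lines as blocks, 2 without drug library a and 3 without control a or drug library b. Among zinc-finger genes, the count higher was 37 without drug library b, 38 without control b and 43 without control a or drug library a, and the count lower was 72 without control a and 73 without control b. For receptors, the count higher was 32 without control a, control b or drug library b, and the count lower was 9 without control a.

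Outside all lists, the 10 largest rises and 10 largest falls among protein-coding genes of at least 10 CPM in both groups were of varied function. Serpine2, a secreted inhibitor of thrombin and urokinase, rose from 13 and 14.5 CPM to 369 and 359 CPM (log2 fold change 4.73, SE 0.90, adjusted p = 0.0022). Glrx2 (chr1:143716338-143749676, plus strand), a mitochondrial glutaredoxin, rose from 13.1 and 11.9 CPM to 209.7 and 288 CPM (log2 fold change 4.31, SE 0.23, adjusted p = 6.2e-06). Scamp1, a carrier membrane protein of secretory vesicles, rose from 21.1 and 25.6 CPM to 357 and 464 CPM (log2 fold change 4.14, SE 0.30, adjusted p = 1.6e-05). The next 3 are enzymes of tubulin and of lipid and an mTOR inhibitor. Ttll1, a polyglutamylase of tubulin, rose from 14 and 13.3 CPM to 231 and 224 CPM (log2 fold change 4.06, SE 0.25, adjusted p = 9.4e-06). Pm20d1, which joins fatty acids to amino acids, rose from 16.0 and 15.3 CPM to 257 and 254 CPM (log2 fold change 4.03, SE 0.26, adjusted p = 9.7e-06). Ddit4l, an inhibitor of mTOR related to REDD1, rose from 14.6 and 12.9 CPM to 218 and 232 CPM (log2 fold change 4.03, SE 0.71, adjusted p = 0.0015). The remaining rises include a protease, a giant muscle protein and a kinase partner. Rhbdd1, a rhomboid protease, rose from 21.8 and 25 CPM to 315 and 418 CPM (log2 fold change 3.97, SE 0.25, adjusted p = 9.4e-06). Neb, the giant muscle protein nebulin, rose from 17.2 and 16.3 CPM to 239 and 277 CPM (log2 fold change 3.95, SE 0.24, adjusted p = 9e-06). Mob3b, of the MOB family of kinase partners, rose from 9.56 and 10.6 CPM to 136 and 169 CPM (log2 fold change 3.92, SE 0.19, adjusted p = 5.4e-06). With Man2b1, described above, these are the 10 rises, and in each both drug libraries exceeded both controls several fold.

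Among the falls, Anp32a (chr9:62341293-62378812, plus strand), a histone chaperone and phosphatase inhibitor, went from 362 and 403 CPM to 25 and 22 CPM (log2 fold change -4.02, SE 0.23, adjusted p = 8.1e-06). Bnip3, a mitochondrial receptor for mitophagy induced by hypoxia, fell from 111 and 147 CPM to 10.8 and 9.64 CPM (log2 fold change -3.65, SE 0.32, adjusted p = 3.6e-05). Fblim1, a filamin-binding adhesion protein, fell from 197 and 164 CPM to 15.0 and 14.2 CPM (log2 fold change -3.63, SE 0.16, adjusted p = 4.8e-06). The next are a sugar kinase and a corepressor. Galk1, the galactokinase, fell from 120.2 and 143 CPM to 13.9 and 11 CPM (log2 fold change -3.40, SE 0.17, adjusted p = 5.4e-06). Aes, a short Groucho-family corepressor, fell from 186 and 182 CPM to 21.6 and 18.4 CPM (log2 fold change -3.20, SE 0.35, adjusted p = 0.00011). Scd1 was described with the sterol genes. The last 4 have nearly the same profile. Kbtbd12 fell from 240.0 and 253 CPM to 27.2 and 23.8 CPM (log2 fold change -3.27, SE 0.13, adjusted p = 4.8e-06), and Sntb1, a syntrophin, from 553 and 564 CPM to 59.8 and 60.9 CPM (log2 fold change -3.21, SE 0.13, adjusted p = 4.8e-06). Adarb2, an RNA editing family member, fell from 507 and 518 CPM to 54.0 and 56.8 CPM (log2 fold change -3.21, SE 0.13, adjusted p = 4.8e-06), and Lhfp, a tetraspan protein, from 326 and 334 CPM to 37.5 and 37.8 CPM (log2 fold change -3.13, SE 0.13, adjusted p = 4.8e-06). Over the 11 libraries the log2 ratio of Sntb1 had an SD of 0.0194 to Adarb2, 0.0692 to Kbtbd12 and 0.0963 to Lhfp, against a median SD of 1.13 over the tested genes of at least 100 CPM. These genes lie on 4 chromosomes, and whether the 4 share a counted sequence was not tested.

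Changes in absolute share of the library were ranked outside the p53-target and pluripotency lists and the 2-cell name pattern, which drops clone-type names as well. That pattern held 10522 of the 28643 tested genes, so the largest gains and losses are not those of all tested genes. Among the genes so ranked, the 8 largest gains were Man2b1, Cad, Dst, Peg10, Ahnak, Ctsd, Prpf8 and Pdia3. Dst, the cytoskeletal linker dystonin, rose from 205 and 206 CPM to 836 and 1047 CPM (log2 fold change 2.19, SE 0.19, adjusted p = 3.4e-05), and Ahnak, a giant scaffold protein, rose from 338 and 332 CPM to 814 and 1066 CPM (log2 fold change 1.49, SE 0.35, adjusted p = 0.0064). The 8 largest losses among the genes so ranked were Ssh2, Eef1a1, Rpl3-ps1, Eno1b, Ncl, Aldoa, Hsp90aa1 and Rpl4, mostly genes of translation, glycolysis and protein folding. Ssh2, a cofilin phosphatase, went from 3424 and 3824 CPM to 1150 and 1203 CPM (log2 fold change -1.62, SE 0.14, adjusted p = 3.5e-05), but the pseudogene Gm12346 lies within its span, had a control mean of 3415 CPM against 3624 CPM for Ssh2, and had an SD of 0.0365 in log2 ratio to Ssh2. The log2 ratio of Ssh2 to Hsp90aa1 had an SD of 0.0949, against a median of 0.65 over genes of at least 100 CPM; the reads of Ssh2 and Gm12346 cannot be told apart.

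The wild-type response was compared with those of the knockouts through the difference of log2 fold changes, wild type minus knockout. Against the p53 knockout 2961 genes differed upward (10.3%) and 2837 downward (9.9%), 20.2% of those tested. With the knockout lines as blocks these were 5136 and 5660, and without 1 wild-type library 1736 to 1932 and 1341 to 1630, the fewest without control b. Against the Dux knockout 903 genes differed upward (3.15%) and 601 downward (2.1%), 5.25% of those tested. With blocks these were 2418 and 3474, by DESeq2 1840 and 1556, and without 1 wild-type library 305 to 559 and 52 to 230, the fewest without drug library b and without control b. Only 1 Dux knockout control library enters the fit, since the count column labelled as the second repeats that of a Dux drug library in all 54532 genes. Counts for that control recovered from its FPKM column gave 825 and 413. Both differences use the same 4 wild-type libraries and so are not independent.

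Man2b1, Ttll1, Pm20d1 and Neb had similar or larger rises in the Dux knockout, by 4.42, 4.13, 4.11 and 5.0, and their wild-type rise exceeded that of the p53 knockout (differences 3.43, adjusted p = 0.0045, 3.24, adjusted p = 0.0005, 2.35, adjusted p = 0.0022 and 3.13, adjusted p = 0.00049). With the knockout lines as blocks Neb also differed from the Dux knockout, by -0.92, adjusted p = 0.025. Glrx2 had 0.54 in the p53 knockout and -0.54 in the Dux knockout, differing by 3.77, adjusted p = 0.00025 and by 4.86, adjusted p = 0.00024. Rhbdd1 had -0.27 in the p53 knockout and -0.04 in the Dux knockout, differing by 4.24, adjusted p = 0.00024 and by 4.01, adjusted p = 0.00065. Mob3b had 0.35 in the p53 knockout and 0.53 in the Dux knockout, differing by 3.58, adjusted p = 0.0002 and by 3.39, adjusted p = 0.0005. None of these 3 was called in either knockout's own response. Scamp1 had 0.31 in the p53 knockout and 1.68 in the Dux knockout, with differences of 3.83, adjusted p = 0.00052 and 2.46, adjusted p = 0.014. Among list members, differences from both were called for Grin2a (6.33, adjusted p = 0.0016 from p53, and 7.13, adjusted p = 0.0062 from Dux), Ctnna2 (5.17, adjusted p = 0.00041, and 6.81, adjusted p = 0.0005) and Hdac9 (3.52, adjusted p = 0.0006, and 2.89, adjusted p = 0.0056).

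Falls differed from the knockouts too. Fblim1 had -0.04 in the p53 knockout and -2.81 in the Dux knockout and differed from the p53 knockout by -3.59, adjusted p = 0.0002; its difference from the Dux knockout was -0.82, adjusted p = 0.078, and with the knockout lines as blocks -0.94, adjusted p = 0.004. Anp32a had -1.15 in the p53 knockout and -2.0 in the Dux knockout, with differences of -2.88, adjusted p = 0.00052 and -2.02, adjusted p = 0.012. Galk1 had -0.99 in the p53 knockout and -1.31 in the Dux knockout, with differences of -2.41, adjusted p = 0.00036 and -2.08, adjusted p = 0.0026. Bnip3 had -1.98 in the p53 knockout and -0.69 in the Dux knockout, with differences of -1.67, adjusted p = 0.022 and -2.96, adjusted p = 0.012. Anp32a, Galk1 and Bnip3 also fell in the p53 knockout's own response, as did 8.09% of the genes tested. Serpine2 and Ddit4l had 2.88 in the p53 knockout and 7.39 in the Dux knockout, and 2.21 in the p53 knockout and 3.5 in the Dux knockout; their differences were not called, with adjusted p of 0.36 and 0.27 against p53 and 0.29 and 0.83 against Dux, which does not show that the genotypes acted alike. With the knockout lines as blocks the adjusted p against p53 was 0.00014 for Serpine2 and 0.00089 for Ddit4l, and against Dux 2.9e-05 and 0.27.

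**Figure D5:**
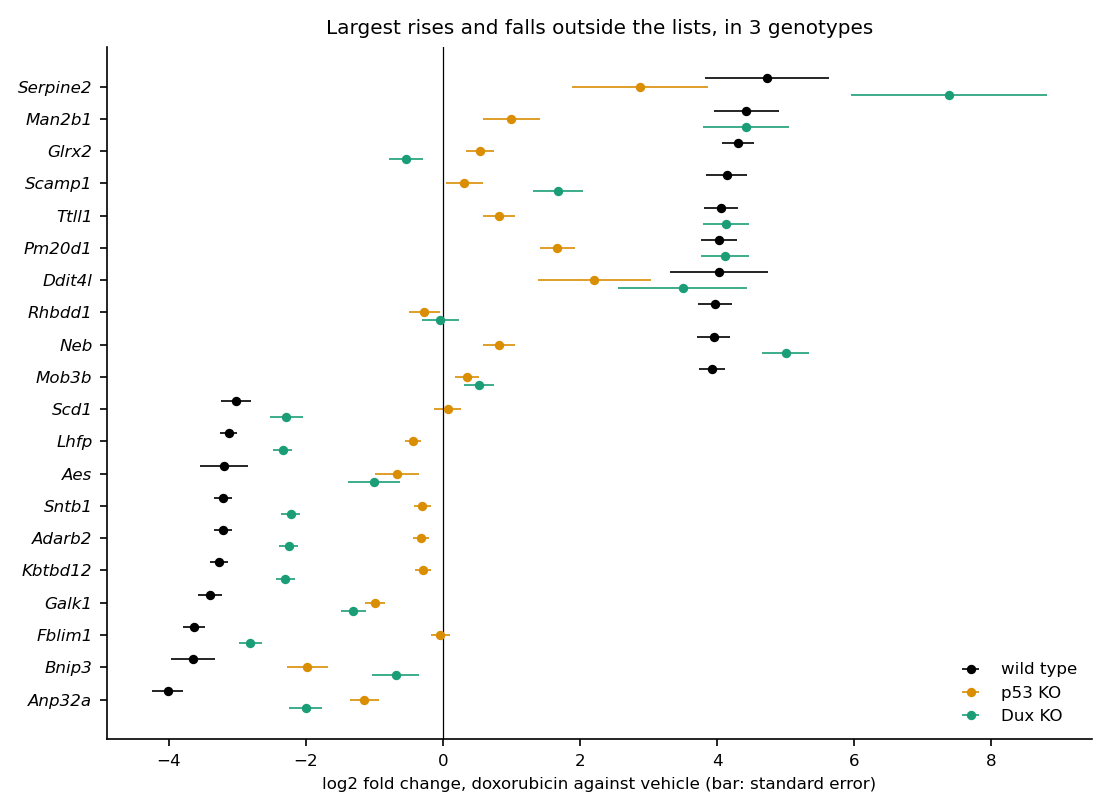
For the 10 largest rises and 10 largest falls outside the lists, points give the log2 fold change of doxorubicin against vehicle in wild type (black), p53 KO (orange) and Dux KO (green), with bars of 1 standard error. Glrx2, Rhbdd1 and Mob3b lie at 3.92 to 4.31 in wild type and between -0.54 and 0.54 in both knockouts, while Man2b1, Ttll1 and Pm20d1 lie at 4.03 to 4.43 in wild type and 4.11 to 4.42 in Dux KO.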

How the data were processed

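Polyadenylated RNA of 12 libraries was sequenced, and the authors deposited whole-number read counts per gene together with FPKM. TopHat2, DESeq and DESeq2 and the build mm10 are named in the submitters' processing notes; the counter, its annotation and its use of strand are not given in the sources used here. The deposited counts were tested, and the FPKM the authors deposited, which are scaled by the length of the gene's whole span and by depth, served only to recover 1 control. Another 6 columns of group averages were not used.

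Of the 12 libraries 11 entered 1 group-means model, since the count column labelled Dux KO control 2 equals that of Dux KO drug 1 in all 54532 genes. Genes were filtered with filterByExpr (minimum count 10), scaled by TMM and tested with edgeR 4.0.16 (quasi-likelihood) in R 4.3.3, with Benjamini-Hochberg adjustment over 28643 genes and a threshold of 0.05. Differences between genotypes are interaction contrasts of the same model. Tested on simulated data for the wild-type response over 26588 genes, the test recovered 40 of 41 planted 4-fold changes and 8 of 46 planted 2-fold changes at a mean of at least 10 CPM, and called 5 genes that were not planted. Only the planted genes changed there, whereas 52.3% of genes were called in the data. The adjustment was therefore stricter in the simulation, and the recovered shares do not give the sensitivity in the data. Totals ran from 23270358 to 56795858 counts in the libraries used. Floors of 3 counts per library cover counting error of independent counts only.

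Gene names and positions are from GENCODE M21 (mm10) and upstream sequences from RefSeq (GRCm38.p6), where 80 of the 105 genes named from the lists or as the largest changes outside them had one. The members and gene lists were chosen with earlier results of these data known. Genes given with library values were the largest called rise and fall of each list with at least 5 CPM in the higher group, the 10 largest rises and falls among protein-coding genes in no list with at least 10 CPM in both groups, the 8 largest gains and losses in CPM, and 6 protein-coding genes at 0 counts in both controls. The rule left out the members of the lists of p53 targets and pluripotency genes and names of the 2-cell pattern, which drops clone-type names as well; a few genes that the rule picks are not reported here. Members given by log2 fold change alone were chosen after their values were seen. Alternatives were RLE scaling, no filter, a filter of 1 CPM, DESeq2 1.42.0, the knockout lines as a block, each wild-type library left out, the 4 wild-type libraries alone and, chosen after seeing the data, the recovered control. Knockout numbers name cell lines and so pair the knockout samples; the deviations of control and drug of the p53 lines correlated at 0.434. Wild-type columns carry no number.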

Additional observations from a re-analysis of the deposited data

Results flagged for a closer look

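The drug response of wild-type cells differed from that of the knockouts by the test of the difference itself (edgeR's quasi-likelihood test, adjusted p below 0.05). Against p53 KO 2961 genes had a higher and 2837 a lower log2 fold change in wild type, and against Dux KO 903 and 601. Both comparisons use the same 4 wild-type libraries, and the Dux comparison rests on 1 Dux KO control library.

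Of the genes given with library values, 33 were called against both knockouts. With the knockout lines as blocks, no call was lost, and a further 27 of the 123 named genes were called against p53 KO and a further 35 against Dux KO. The difference of log2 fold changes, wild type minus Dux KO, was positive for Ctnna2 (6.81), Dnajb9 (1.44), Dst (2.23), Glrx2 (4.86), Grin2a (7.13), Hdac9 (2.89), Hdc (11.54), Iars (1.84), Mob3b (3.39), Nelfa (3.56), Phc2 (1.14), Prpf8 (0.95), Rhbdd1 (4.01), Scamp1 (2.46), Traf1 (2.92) and Zfp36 (2.03). It was negative for Adarb2 (-0.96), Aes (-2.20), Aldoa (-1.50), Aldoc (-2.59), Anp32a (-2.02), Bnip3 (-2.96), Dtx1 (-2.71), Ehmt2 (-1.23), Galk1 (-2.08), Grin1 (-2.92), Hnrnpl (-0.72), Kbtbd12 (-0.97), Lhfp (-0.79), Neu1 (-2.33), Rpl38 (-1.34), Sntb1 (-0.99) and Stat6 (-1.96). With the Dux KO control recovered from its FPKM added, Rpl38, Phc2, Aes and Prpf8 were no longer called against Dux KO. Hdc had 0 counts in both wild-type controls, so that its difference depends on the prior count of the fit and is no bound.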

How the results depend on the processing

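Over all genes, 8296 rose and 6698 fell. Neither count moved by more than 1.5 times under RLE scaling, no filter, the stricter filter, DESeq2, the knockout block, the 4 wild-type libraries alone or the recovered control (7209 to 9958 higher, 5944 to 8582 lower). Leaving out 1 wild-type library gave 5489 to 6382 higher and 4749 to 5118 lower. Of the calls 68.7% to 99.7% were kept over these 11 settings, and no gene called in both had the opposite sign. The median over all genes, 0.13, shifted by 0.10 under RLE scaling and DESeq2, by -0.11 under the stricter filter and by -0.14 without drug library b; the share of rises among called genes ranged from 51.7% to 59.8%.

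Differences between genotypes moved more, and the cause was not tested. With the knockout lines as a replicate block, 5136 and 5660 genes differed from p53 KO in place of 2961 and 2837, and 2418 and 3474 from Dux KO in place of 903 and 601. The block lost no named call in the wild-type response. DESeq2 gave 1840 and 1556 against Dux KO. Leaving out 1 wild-type library gave 1736 to 1932 and 1341 to 1630 against p53 KO, and 305 to 559 and 52 to 230 against Dux KO.

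List counts that moved by more than 1.5 times under the block or without 1 library stand beside the lists. Under the other settings such counts were 28 olfactory and vomeronasal receptors higher with the stricter filter, and otherwise 23 genes or fewer.

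All 123 named genes kept their call under the first 6 settings named above, 120 with the recovered control, and 113 to 117 without 1 library. Snhg4, whose recovered count was set to 0 for want of an annotated span, is among those not kept with the recovered control. In simulated data with 2 libraries a side, 8 of 46 planted 2-fold changes at 10 CPM or more were recovered. Since few genes changed there, the adjustment was stricter than in the data, whose sensitivity this share does not give.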
